A study of Mus musculus with 36 samples.

Results

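The comparison sets RNA that mock-treated NIH-3T3 cells made over the whole first hour of mock treatment against RNA they made in the last 30 min of that hour. Its members are 6 of the 36 arrays of the series, chosen by their labels alone. In 3 arrays the cells had been labelled from 0 to 60 min with 200 µM 4-thiouridine (4sU), and in 3 from 30 to 60 min with 500 µM. NIH-3T3 is an established line of mouse embryo fibroblasts. The cells, between 5 and 15 passages after thawing, had grown to 80% density in DMEM with 5% NCS when the mock treatment began. Window length, window start and 4sU dose changed together between the groups, so their parts in any difference cannot be told apart. The same pair of windows was also run with IFN alpha and with IFN gamma, each at 100 U/ml, on 12 arrays that the mock comparison does not use. Mock arrays for 0-30 and 150-180 min, both at 500 µM 4sU, give further levels. The labels number the arrays of a group but do not say that they were separate cultures, so each p-value reflects array-to-array spread, which may be technical.

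4sU is a nucleoside that cells take up and build into RNA while it is present, and RNA that carries it can be separated from older RNA. A short window reads mostly what genes transcribe at that time, whereas a longer one also keeps transcripts that have had time to be spliced, exported or degraded. Fresh serum, which a change of medium brings, is known to start the immediate-early genes of fibroblasts within minutes and later waves of cytoskeletal, growth factor and cell cycle genes. A difference between the windows can therefore carry the time of transcription, the time for processing and the labelling conditions at once.

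Values are log2 levels, each array shifted to a common median, and differences are 0-60 min minus 30-60 min with the standard error of the fit. Of 15 fibroblast markers 14 passed the filter (log2 over 4 in at least 3 of the 36 arrays), with a median level of 10.41 in the 0-60 min and 10.19 in the 30-60 min arrays; Fap did not pass. No epithelial marker of 9 passed, 1 of 9 endothelial ones did, and 3 of 11 adipocyte and muscle ones. Of 12 macrophage markers only Cd14 passed, and Cd68, Csf1r, Adgre1 and Ptprc lay under log2 4 in both groups. Cd14 stood at 7.12 and 4.96. Array 1 of the 0-60 min group stood apart. It correlated with its mates at 0.909 and 0.910, while they correlated at 0.987. Its Gapdh control probe sets read 2.67 higher at the 3′ than at the 5′ end, against -0.31 and -0.30 in arrays 2 and 3. The 30-60 min arrays read -0.48, 0.59 and -0.07. The bioC spike-in control read 9.57, 8.51 and 8.50 in the 0-60 min arrays and 10.27, 9.21 and 7.65 in the 30-60 min arrays. The 30-60 min arrays 1, 2 and 3 of IFN alpha (10.28, 9.16 and 7.17) and of IFN gamma (10.36, 9.35 and 7.33) showed the same order. Across genes, too, same-numbered arrays of the 3 treatments deviated together within a window, with correlations of 0.18 to 0.70 and 18 of 18 pairs over 0.1. The part of array 1 is given by leaving it out; that of the spike-in levels was not tested.

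Of 9521 genes tested, 4999 differed between the windows, called at an adjusted p under 0.05 (52.5%), 3868 higher (40.6%) and 1131 lower (11.9%). The median difference over all genes was 0.34, since the tested genes sat at array medians of 6.93 to 7.0 in the 0-60 min group and 6.52 to 6.56 in the 30-60 min group. With the arrays shifted to the median of the tested genes, 4277 were called (44.9%), 1716 higher (18%) and 2561 lower (26.9%), and the median difference was -0.09. That scaling moves every gene's difference by -0.43, so higher calls outnumbered lower ones under the main scaling and lower calls outnumbered higher ones under the other. All 1131 lower genes and 1716 of the 3868 higher ones were called the same way under both scalings, and 0 the opposite way. Since every gene moved down, the lower genes could only move further from 0, so their agreement is no check of those calls. Without array 1 of the 0-60 min group, 4908 were called (51.5%), 3923 higher (41.2%) and 985 lower (10.3%). With only the 6 arrays in the fit, 2111 were called, and 3862 when array 1 was left out as well. A single estimate of spread serves all groups of a gene. The 0-60 min mock group, however, had a median SD of 0.39 (0.15 without array 1), beside 0.21 in the 30-60 min mock group. On simulated arrays with the spreads of these arrays and few changed genes the fit called more unchanged than changed genes. That held with or without array 1, but hardly any unchanged gene was called once arrays were weighted by their spread. With such array weights 5352 genes were called in these data, 4216 higher and 1136 lower. The simulation had few changed genes, whereas the main fit called 52.5% here. How many calls in these data fall on unchanged genes therefore cannot be read from the simulation, with or without the weights. In 4351 genes (45.7%) the arrays of the groups did not overlap at all, with 3348 higher (35.2%) and 1003 lower (10.5%).

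The 0-60 min level lay between those of 0-30 and 30-60 min for 4314 of the 9521 genes (45.3%), above both for 2917 and below both for 2290, a description that shares the 0-60 min arrays throughout. Of the 3868 higher genes 3691 also stood above their 30-60 min level at 0-30 min, and 3495 at 150-180 min. Of the 1131 lower genes 875 and 770 stood below it. These counts share the 30-60 min arrays with the calls, so they only describe how the other windows stood.

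Cell cycle genes had the largest median of the 26 gene lists. Of 38 tested members 33 were higher after 0-60 min (86.8%, beside 40.6% of all genes) and 1 lower. The median difference was 0.97 beside 0.34 over all genes. Without array 1 the counts were 32 and 1 (median 1.06), and with the tested-gene median 23 and 1 (0.54). The mitotic kinase Aurka read 7.82, 8.17 and 7.78 in the 0-60 min arrays and 6.17, 5.69 and 5.70 in the 30-60 min arrays. Plk1, another kinase of mitosis, read 7.04, 6.48 and 6.66 against 4.46, 4.69 and 4.86. Mcm3, a subunit of the replicative helicase, read 9.58, 9.66 and 9.62 against 7.73, 8.03 and 7.70. In all 3 genes every 0-60 min array stood above every 30-60 min array. The differences were 2.07 ± 0.22 for Aurka (adjusted p = 1.1e-08, limma), 2.06 ± 0.19 for Plk1 (6e-10) and 1.80 ± 0.12 for Mcm3 (1.6e-12). The 30-60 min level was also the lowest of the 4 windows. Aurka stood at 8.26 and Plk1 at 7.25 in the 0-30 min arrays, and at 9.12 and 7.71 at 150-180 min. The median level of all genes tested was lowest at 30-60 min too. It was 6.53 there, 6.96 at 0-60, 7.10 at 0-30 and 7.15 at 150-180 min. Other subunits of the helicase, Mcm6 (1.5), Mcm2 (1.39), Mcm7 (1.18) and Mcm5 (1.11), were called with Mcm3, while Mcm4 was not (0.17). Ccnd1, cyclin D1, which drives entry into the cycle, was higher by 1.31 ± 0.17 at 10.51, 9.82 and 9.87 against 8.80, 8.82 and 8.63. The lower member was Tyms, thymidylate synthase, at -1.21.

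The promoters of Aurka, Plk1 and Mcm3, whose values stand above, are shown as called genes of the list with large differences. Each line holds the 250 bases before the annotated start, 5′ to 3′ on the gene's strand, from RefSeq on GRCm38.p6. Capitals mark the CCAAT box, CCAAT or its reverse ATTGG, an element common in promoters of mitotic genes. The regions are chr2:172370571-172370820 on the minus strand for Aurka, chr7:122159185-122159434 on the plus strand for Plk1 and chr1:20820313-20820562 on the minus strand for Mcm3.
Aurka: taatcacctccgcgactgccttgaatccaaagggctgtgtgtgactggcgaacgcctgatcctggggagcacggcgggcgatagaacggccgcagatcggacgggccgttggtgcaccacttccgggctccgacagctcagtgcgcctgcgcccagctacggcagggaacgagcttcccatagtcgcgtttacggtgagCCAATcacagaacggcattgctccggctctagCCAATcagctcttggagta
Plk1: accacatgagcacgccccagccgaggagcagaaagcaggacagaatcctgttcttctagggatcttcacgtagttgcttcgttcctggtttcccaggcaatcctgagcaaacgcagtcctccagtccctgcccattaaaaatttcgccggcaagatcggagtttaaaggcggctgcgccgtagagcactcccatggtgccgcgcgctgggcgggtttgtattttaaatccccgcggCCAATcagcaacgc
Mcm3: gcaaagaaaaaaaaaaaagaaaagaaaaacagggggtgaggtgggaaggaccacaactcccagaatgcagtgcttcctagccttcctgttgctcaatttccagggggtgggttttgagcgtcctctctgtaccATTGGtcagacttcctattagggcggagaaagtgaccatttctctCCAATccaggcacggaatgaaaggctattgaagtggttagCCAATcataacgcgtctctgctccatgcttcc
A CCAAT box begins 51 and 19 bases before the Aurka start, 14 bases before that of Plk1, and 117, 72 and 32 bases before that of Mcm3. Promoters were matched for 32 of the 38 cell cycle genes and 7801 of the 9521 genes tested. On either strand, 23 of the 32 held a CCAAT box (71.9%), beside 3252 of the 7801 (41.7%) and 37.5% of all 27025 promoters in the table. Among the cell cycle genes called higher it was 21 of 29 (72.4%), near the share of the whole list. A link to the window difference was not tested. The CHR element, TTTGAA or TTCAAA, was in 8 of the 32 (25%) and 985 of the 7801 (12.6%), and in 0 of the 3 promoters shown. These shares describe letters in a window and say nothing about a factor's binding.

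Genes of sterol and fatty acid synthesis were higher in 21 of 26 (80.8%, beside 40.6% of all genes) with 0 lower, and a median of 0.66 beside 0.34. The median level of the list was 9.54 at 0-60 and 8.61 at 30-60 min, but 10.23 at 0-30 and 10.40 at 150-180 min. The median of all genes tested had the same order of windows. Mvd, which makes isopentenyl diphosphate in the mevalonate pathway, read 7.62, 6.32 and 6.16 after 0-60 min and 4.24, 5.06 and 4.69 after 30-60 min. Its difference was 2.04 ± 0.29, or 1.58 without array 1, whose value was the highest. Fasn, fatty acid synthase, read 11.13, 10.95 and 10.77 against 9.40, 9.80 and 9.66, a difference of 1.33 ± 0.12 (adjusted p = 4.3e-10). The groups did not overlap for either gene. Lss (1.53 ± 0.20), the cyclase that makes lanosterol, and Srebf1 (1.38 ± 0.30), a transcription factor of lipid synthesis, were higher too. The related factor Srebf2 (-0.01) and its regulators Insig1 (0.06) and Insig2 (-0.23) did not pass. With the tested-gene median 11 members were higher and 2 lower.

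Glycolysis and hypoxia genes were higher in 17 of 31 (54.8%, beside 40.6% of all genes) and lower in 1, with a median of 0.52 beside 0.34. Pfkl, a phosphofructokinase subunit, was higher by 2.14 ± 0.31, Tpi1 by 1.3, Aldoa by 1.23 and Ldha by 0.94. Hk2, a hexokinase, read 10.74, 10.81 and 10.88 against 9.94, 10.003 and 9.90 (0.86 ± 0.12, adjusted p = 7e-07). Vegfa, a growth factor of blood vessels, was the lower member at -0.78, but stood at -0.15 without array 1 and was then not called. Bnip3, a mitophagy receptor, turned on array 1. It read 4.19, 6.27 and 6.29 after 0-60 min and 4.92, 4.66 and 4.87 after 30-60 min, so array 1 lay below the 30-60 min arrays and arrays 2 and 3 above them. The difference was 0.77 ± 0.29 with array 1 and 1.46 without it. In the 0-30 and 150-180 min arrays Bnip3 stood at 8.74 and 8.66. Ddit4, a stress-induced inhibitor of mTOR signalling, spread widely within its groups, at 8.91, 9.39 and 9.68 against 8.44, 6.91 and 5.80 (2.28 ± 0.67).

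The lists of ribosomal protein, respiratory chain, proteasome, translation and ATF4 genes had 61.3% to 75.3% of their genes called higher, beside 40.6% of all genes. Their medians were 0.46 to 0.78, beside 0.34. The median level of each of these lists was lowest in the 30-60 min arrays among the 4 mock windows. That of all genes tested was lowest there too (6.53, beside 6.96 to 7.15), so this order is not particular to the lists. Mitochondrial ribosomal proteins were higher in 55 of 73 and lower in 0 (median 0.78), led by Mrpl49 at 6.38, 7.0 and 6.92 against 4.76, 4.26 and 4.82. Without array 1 the count was 47, and with the tested-gene median 28 were higher and 4 lower. Respiratory chain and ATP synthase genes were higher in 51 of 74 and lower in 1 (median 0.65), among them Uqcrc1 (1.26 ± 0.20), a core subunit of complex III, and Ndufs7 (1.21 ± 0.25) of complex I. Proteasome subunits were higher in 23 of 31 and lower in 1 (median 0.73), with Psmd4 at 1.58 ± 0.21 and the lower Psmd14 at -0.45. Of tRNA synthetases and translation factors 23 of 35 were higher and 1 lower (median 0.54), with Vars, the valine synthetase, at 1.99 ± 0.25 and the elongation factor Eef2 at 1.40 ± 0.12. Eef2 read 12.25, 11.58 and 11.70 against 10.33, 10.51 and 10.51, without overlap. Cytosolic ribosomal proteins were higher in 33 of 46 and lower in 0, but by less (median 0.46). With the tested-gene median that list lost its direction, with 5 higher and 7 lower (median 0.03), and 25 were higher without array 1. ATF4 and unfolded protein response genes were higher in 19 of 31 and lower in 1 (median 0.59). Its amino acid and stress genes Shmt2 (1.85), Chac1 (1.82), Atf5 (1.61) and Ppp1r15a (1.60) were called. The endoplasmic reticulum chaperones Hspa5 (0.13) and Pdia4 (-0.08) did not pass, and Hsp90b1, at -0.45, was not called without array 1 (-0.20).

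**Figure D1:**
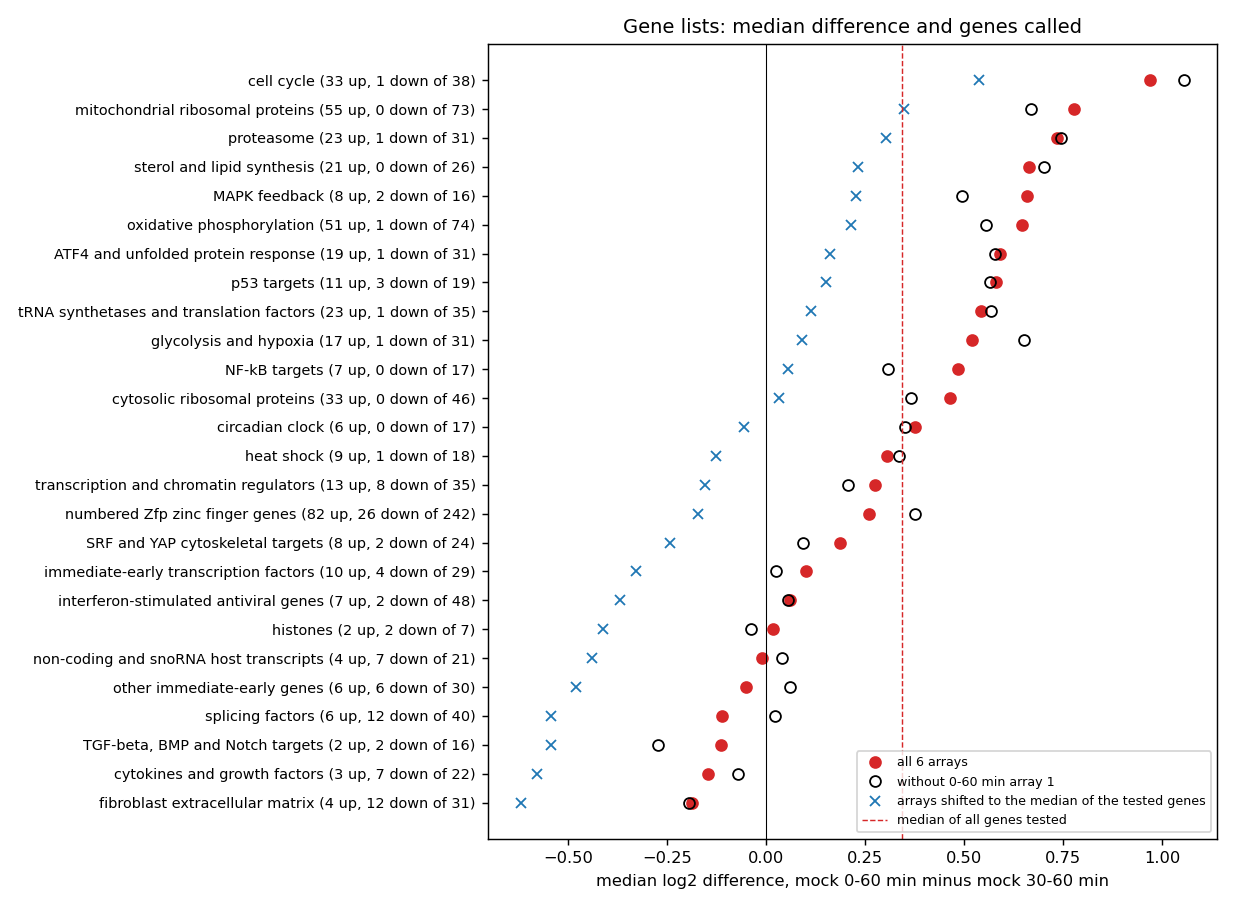
Median log2 difference, mock 0-60 min minus 30-60 min, of the tested genes in each of 26 lists (vertical axis, with the genes called higher and lower). Red points use all 6 arrays, open circles leave out 0-60 min array 1, crosses shift the arrays to the median of the tested genes, and the dashed line is the median of all genes tested. The cell cycle list lies at 0.97 and the fibroblast matrix list at -0.19, and the crosses lie below the red points in every list.

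The largest single differences upward came from genes that were low in the 30-60 min arrays. H1f2, a linker histone, read 9.05, 9.33 and 9.87 against 5.80, 5.05 and 5.85, a 14.4-fold difference (3.85 ± 0.34, adjusted p = 3.9e-10). Histone genes have near-identical copies, so the probe set may read several of them. Tnfsf9, a ligand of the tumour necrosis factor family, read 7.48, 7.19 and 6.89 against 3.81, 3.65 and 4.08 (3.34 ± 0.23). Nr1d1, a repressor of the circadian clock, read 7.02, 5.88 and 6.21 against 2.60, 3.55 and 3.2 (3.25 ± 0.24). The mean of Tnfsf9 and of Nr1d1 in the 30-60 min arrays lay under log2 4, the level of the filter, so no fold is given for them. Tnfsf9 and H1f2 were near their 0-60 min level in the 0-30 min arrays, at 6.91 and 9.05, while Nr1d1 stood between at 4.53. Stc1, a secreted glycoprotein hormone, was higher by 2.64 ± 0.23 and Lmnb1, a lamin of the nuclear envelope, by 2.73 ± 0.35. Rgs16, which turns off G-protein signals, lay over log2 4 in every array, at 11.60, 11.85 and 11.88 against 9.70, 9.02 and 9.13 (2.49 ± 0.26). Its 0-30 min level was 9.77, so both 30 min windows lay below the hour. The 12 genes the rule took from this end also hold Nceh1 (2.71) and Aqp1 (2.68), with 30-60 min means under log2 4, Akt1s1 (2.57), Pdlim1 (2.53), Ptpre (2.45) and Ifit1 (2.45); the rule took only genes whose groups did not overlap.

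**Figure D2:**
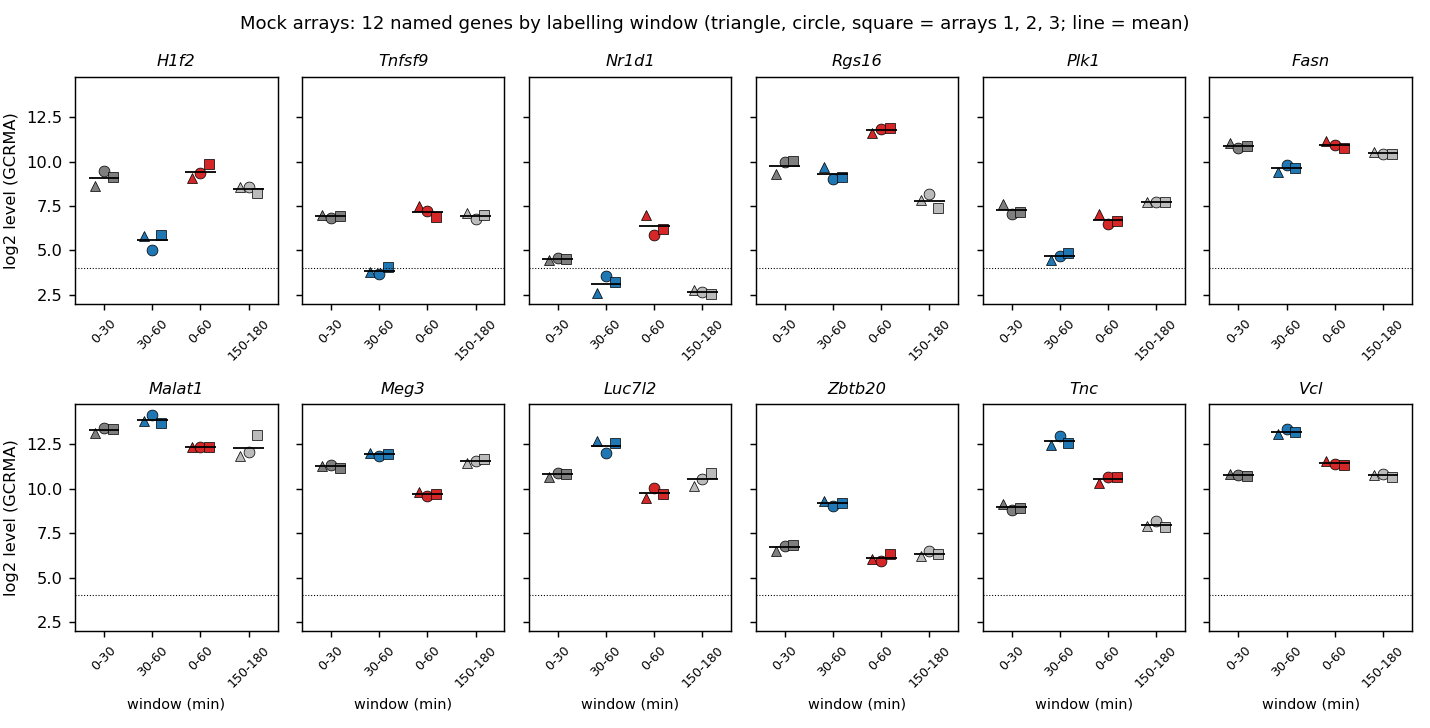
Log2 level (vertical axis) of 12 genes in the mock arrays of 4 labelling windows in min (horizontal axis); symbols are arrays 1, 2 and 3, bars their means, and the dotted line the filter at log2 4. H1f2, Tnfsf9, Plk1 and Fasn are lowest at 30-60 min, Malat1, Meg3, Luc7l2 and Zbtb20 highest there, and Tnc and Vcl rank 30-60 over 0-60 over 0-30 min.

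Immediate-early genes of the serum response went both ways. Of 29 immediate-early transcription factors 10 were higher (34.5%) and 4 lower (13.8%), near the shares over all genes, with a median of 0.10. Of 30 other immediate-early genes 6 were higher (20%) and 6 lower (20%), beside 40.6% and 11.9% of all genes. Their median was -0.05, but 0.06 without array 1 and 0.01 after quantile normalization. The transcription factor list turned to a median of -0.33 with the tested-gene median, with 6 higher and 11 lower. Without array 1 its counts were 8 and 1. Egr1 read 13.21, 13.41 and 13.38 against 13.61, 13.52 and 13.52, and did not pass (-0.22 ± 0.11, adjusted p = 0.078). Fos read 10.84, 11.82 and 12.44 against 12.29, 12.39 and 12.60 (-0.73 ± 0.23, adjusted p = 0.010), with the lowest value in array 1. Without that array the difference was -0.30 and no longer called (adjusted p = 0.21). Jun was called higher at 0.42 ± 0.17, but stood at -0.01 with the tested-gene median. Junb, Ier2, Nr4a1, Myc, Zfp36, Ccn1, Hes1 and Per1 did not pass, with differences between -0.33 and 0.30. Atf3, a stress-induced repressor, was the clearest of the fixed panel at 8.15, 8.05 and 8.21 against 6.58, 6.87 and 6.81 (1.38 ± 0.17, adjusted p = 1.7e-07). Fosb (1.66), Klf2 (1.42), Mafk (1.40) and Jund (1.28) were higher as well, and Nr4a2 was lower at -1.3 (-0.85 without array 1).

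Phosphatases that switch off MAP kinases split. Dusp7 (1.58, and 1.0 without array 1), Dusp8 (1.57), Dusp14 (1.48), Dusp16 (0.98) and Dusp10 (0.92) were higher. Dusp1, the immediate-early member, was lower at -0.78 ± 0.24 but not called without array 1 (-0.57, adjusted p = 0.063). In all 8 of 16 feedback genes were higher (50%) and 2 lower (12.5%), beside 40.6% and 11.9% of all genes. With the tested-gene median these counts were 4 and 6. For Dusp16 another probe set was called the opposite way. Of 17 NF-kB targets 7 were higher and 0 lower (median 0.49); 41.2% higher is near the 40.6% of all genes. Among them Irf1, an interferon and NF-kB target, was higher by 1.17 ± 0.19, while Nfkbia, which encodes the inhibitor IkB alpha, stood at 0.05. Bcl3 and Nfkbib were not called without array 1, and with the tested-gene median 1 target was higher and 4 lower. Of 19 p53 targets 11 were higher (57.9%) and 3 lower (15.8%), beside 40.6% and 11.9% of all genes, with a median of 0.58. Cdkn1a, an inhibitor of cyclin-dependent kinases, was higher at 1.57 ± 0.29 and Mdm2 was not called (-0.06).

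Fibroblast extracellular matrix genes were lower in 12 of 31 (38.7%) and higher in 4 (12.9%), beside 11.9% and 40.6% of all genes. Their median was -0.19, and 10 were lower with 0 higher when array 1 was left out. Col1a1, the main chain of collagen I, was among the 4, at 11.99, 9.13 and 9.36 against 7.59, 9.98 and 8.66. Its groups overlapped, and without array 1 it was not called (0.50, adjusted p = 0.44). Tnc, an adhesion-modulating matrix protein, read 10.31, 10.65 and 10.67 after 0-60 min and 12.48, 12.96 and 12.58 after 30-60 min (-2.13 ± 0.19, adjusted p = 2.7e-10). The 0-30 min arrays read 9.15, 8.79 and 8.94, so the hour lay between the early and the late window. Its other probe set was not called. Vcl, vinculin of focal adhesions and a serum response factor target, had the same order, at 11.58, 11.38 and 11.35 for the hour, 13.09, 13.35 and 13.21 for 30-60 min and 10.81, 10.75 and 10.74 for 0-30 min (-1.78 ± 0.13). Of the cytoskeletal targets as a list 8 of 24 were higher (33.3%) and 2 lower (8.33%), near the 40.6% and 11.9% of all genes. The list median was 0.19, and -0.24 with the tested-gene median. Postn, a matrix protein of fibroblasts, was lower by 2.00 ± 0.16 on the log2 scale, but its 0-30 min level (7.41) was near that of the hour (6.75).

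Cytokines and growth factors were lower in 7 of 22 (31.8%) and higher in 3 (13.6%), beside 11.9% and 40.6% of all genes, with a median of -0.15. Hgf, a growth factor for epithelia, read 7.70, 8.04 and 7.86 against 9.86, 9.11 and 9.53 (-1.63 ± 0.21). Il6, an inflammatory cytokine, read 7.46, 9.34 and 9.30 against 9.79, 10.05 and 10.16, and its difference was -1.3 with array 1, the lowest value, and -0.68 without it. Fgf7 (-0.92), Cxcl12 (-0.87) and Nrg1 (-0.78) were lower too. Of 16 TGF-beta, BMP and Notch targets 2 were higher (12.5%) and 2 lower (12.5%), beside 40.6% and 11.9% of all genes. Id2, an inhibitor of basic helix-loop-helix factors, read 10.40, 11.32 and 11.34 for the hour, 11.72, 12.29 and 11.93 for 30-60 min and 9.82, 9.17 and 9.19 for 0-30 min (-0.96 ± 0.19). Id4 had that order too, at means of 9.49, 10.29 and 8.21, whereas Id1 (-0.10) and Id3 (-0.38) did not pass.

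Several long non-coding transcripts were lower after the longer window. The list of 21 held 7 lower (33.3%) and 4 higher (19.05%), beside 11.9% and 40.6% of all genes. Its median was -0.01, but 0.04 without array 1 and as deposited, beside 0.34 over all genes. The lower members included the nuclear RNAs Malat1 and Neat1 (-0.90), the imprinted RNAs Meg3, Rian and Kcnq1ot1 (-1.22) and the miRNA host Mir22hg. Mir22hg differed by -1.36, or -0.72 without array 1, its lowest value. Malat1 read 12.33, 12.35 and 12.37 against 13.80, 14.17 and 13.69, with 0-30 min between at 13.30 (-1.53 ± 0.26). All 6 of its other probe sets were called the same way. Meg3 read 9.84, 9.60 and 9.69 against 12.01, 11.82 and 11.96 (-2.22 ± 0.15, adjusted p = 1.9e-12), with 9 of 9 other probe sets alike. Rian read 8.42, 6.91 and 7.24 against 9.91, 10.41 and 9.62 (-2.46 ± 0.30). For these 3 the groups did not overlap. The hosts of small nucleolar RNAs differed less, between -0.31 for Snhg1 (-0.14 and not called without array 1) and 0.37 for Gas5, Zfas1 and Snhg8, and Pvt1 was higher at 0.80.

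Splicing factors had 12 lower (30%) and 6 higher (15%) of 40, beside 11.9% and 40.6% of all genes. Their median was -0.11, but 0.02 without array 1. Luc7l2, a U1-associated factor, read 9.49, 10.07 and 9.72 against 12.66, 12.002 and 12.56 (-2.65 ± 0.26), and its 6 other probe sets were all lower. Rbm39 read 9.38, 10.93 and 11.24 against 12.67, 12.59 and 12.63, at -2.11 with array 1 and -1.54 without it, and 10 of its 11 other probe sets were lower. Rbm25 (-1.61) and Tra2a (-1.17, or -0.74 without array 1) were lower, while U2af2 (1.09) and U2af1 (0.90), which recognise the 3′ splice site, were higher. Of 35 transcription and chromatin regulators 13 were higher (37.1%) and 8 lower (22.9%), beside 40.6% and 11.9% of all genes. Their median was 0.28, and -0.15 with the tested-gene median. Med13 (-1.68), Supt6 (-1.64) and Ccnt2 (-1.53) were lower. Polr2a, the large subunit of RNA polymerase II, was called higher at 8.94, 5.96 and 6.66 against 4.43, 6.22 and 5.14, with overlapping groups, and was not called without array 1 (1.05, adjusted p = 0.064).

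The largest differences downward were picked among genes whose 30-60 min arrays averaged log2 6 or more, so a high level there is a condition of the choice. Heg1, a transmembrane protein of the vessel wall and heart, read 6.0, 5.53 and 6.27 against 9.36, 9.43 and 9.74, 11.9-fold lower (-3.57 ± 0.26). Zbtb20, a transcriptional repressor, read 6.05, 5.95 and 6.32 against 9.32, 9.05 and 9.20 (-3.08 ± 0.22), and all 8 of its other probe sets were lower. Npn2 read 3.94, 4.99 and 5.10 against 9.05, 8.33 and 9.23 (-4.19 ± 0.34). In the 0-30 and 150-180 min arrays these genes stood near the 0-60 min level, at 6.34 and 6.46 for Heg1, 6.72 and 6.35 for Zbtb20 and 4.64 and 4.64 for Npn2. Mid1 (-3.10), a ubiquitin ligase on microtubules, Dtnb (-2.95), a dystrobrevin, and Gm4432 (-3.08) were lower as well, with Gm20199 (-3.68) and 4931406H21Rik (-2.93). C130033p17rik (-4.05), Apol8 (-3.37) and Amn1 (-3.29) had 0-60 min means under log2 4. Myo1d, an unconventional myosin, was lower at -3.23, but its other probe set was called higher. Heg1, Zbtb20, Dtnb, C130033p17rik, Apol8, Amn1 and Myo1d were read from probe sets with a RIKEN EST accession. As described below, that class was called lower more often than probe sets with a RefSeq mRNA accession.

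How a gene was read mattered, because probe sets of different kinds moved in opposite directions. Over all 21815 kept probe sets, 11848 were called (54.3%), 6396 higher (29.3%) and 5452 lower (25%). Of 3361 probe sets with no gene symbol 290 were higher and 2284 lower (8.63% and 68.0%), with a median of -1.38. Without array 1 these were 295 and 2241. Of 17940 with 1 symbol 5909 were higher and 3114 lower, with a median of 0.22. The largest lower difference named here, of probe set 1445152_at with no symbol, came from 3.85, 4.83 and 3.68 against 8.98, 8.72 and 8.97 (-4.77 ± 0.33). A split of the named probe sets by the accession in the array annotation, chosen after the values were seen, ran the same way. Of 2872 probe sets with a RefSeq mRNA accession 1249 were higher and 204 lower (median 0.44), and of 1746 with a full-length cDNA accession 761 and 137 (0.43). Of 3172 with a RIKEN EST accession 752 were higher and 963 lower (-0.03).

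This pattern set the 30-60 min window against all others, whatever the treatment. In the 9 arrays labelled from 30 to 60 min the median of the probe sets without a symbol lay 0.20 to 0.43 above that of the probe sets with 1 symbol. In the other 27 arrays it lay 0.99 to 1.83 below. Those 27 include the 0-30 and 150-180 min arrays, which share length and dose with the 30-60 min arrays. The 30-60 min arrays also differed in control signals. In mock their Gapdh 3′ control probe set read 11.16, 11.45 and 11.31, beside 12.59, 12.47 and 12.30 at 0-30 min. The cause of the pattern was not tested. Where these probe sets lie in the genome was not analysed here.

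**Figure D3:**
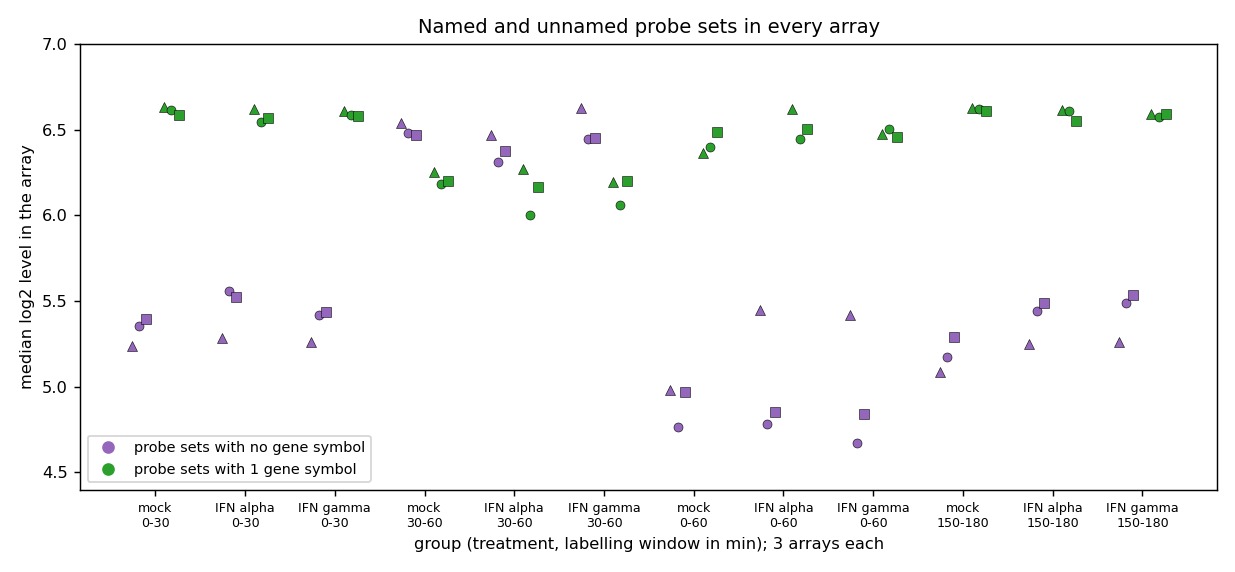
Median log2 level (vertical axis, from 4.4 to 7.0) of kept probe sets with no gene symbol (purple) and with 1 symbol (green) in each of the 36 arrays, by treatment and labelling window (horizontal axis); symbols are arrays 1, 2 and 3. In the 9 arrays of 30-60 min the purple points lie 0.20 to 0.43 above the green, and in the other 27 arrays they lie 0.99 to 1.83 below.

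Within single genes the probe sets disagreed as well. Of 4796 genes with 2 or more kept probe sets, 512 (10.7%) had calls in both directions, 1969 were higher only and 1212 lower only. Without array 1 of the 0-60 min group 527 had both. Specc1l and Tmcc1 were among the genes with the widest span, and Birc6 and Ppp6r3 were chosen after their values were seen. Birc6, a giant inhibitor of apoptosis and ubiquitin-conjugating enzyme, stood at 8.86, 8.99 and 7.83 against 8.49, 8.35 and 8.69 on a probe set with a RefSeq mRNA accession, and was not called (0.05). On an EST probe set it read 4.06, 4.99 and 5.51 against 8.69, 8.11 and 8.44 (-3.56 ± 0.28), and others gave -2.69 and -2.84. Another probe set with a RefSeq mRNA accession was called lower (-0.49), and a full-length cDNA probe set was not called (0.62). Ppp6r3, a regulatory subunit of protein phosphatase 6, was higher at 0.65 on a full-length cDNA probe set (0.31 and not called without array 1) and lower at -2.01 and -2.53 on others. Specc1l, a cytoskeletal protein, gave 0.86 and -3.47. So 1 gene could be called in either direction, depending on the probe set. Of 72 named and called genes with other kept probe sets, all others were called the same way for 33, and for 7 some were called the opposite way (Myo1d, Zfp398, Adar, Supt6, Dusp16, Ahsa1 and Zc3hav1). Probe sets whose name ends in _s_at or _x_at, among them those of Mcm3, Mvd, Lss, Malat1, Meg3 and Trim25, can match more than 1 transcript.

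**Figure D4:**
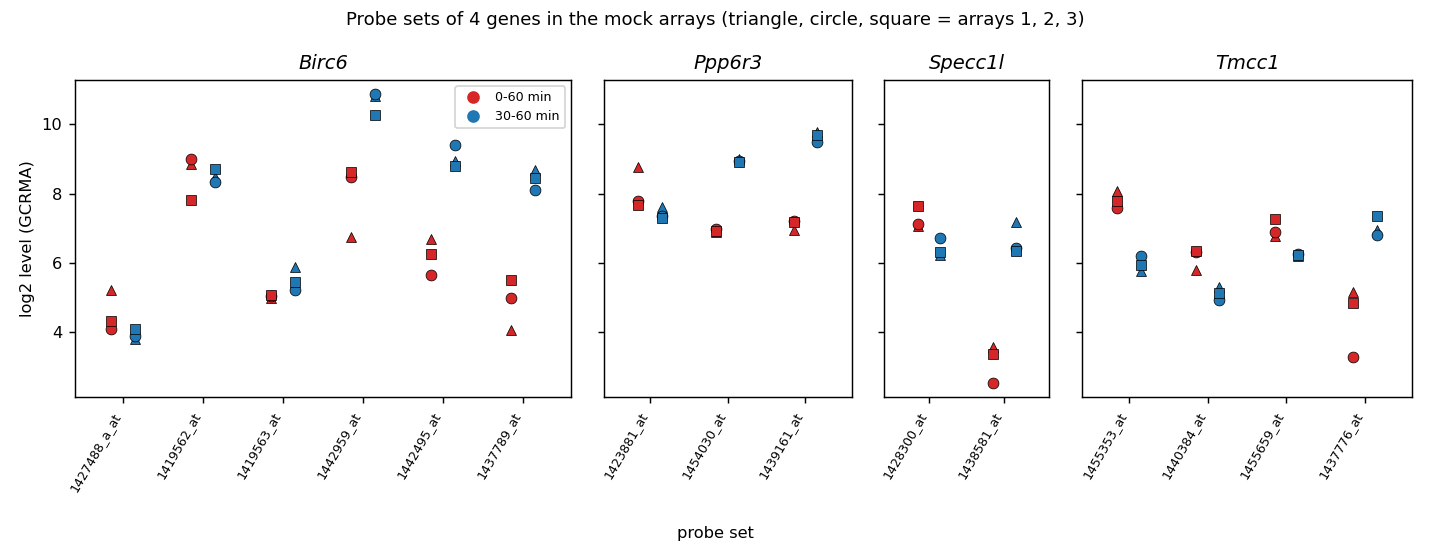
Log2 level (vertical axis) of every kept probe set (horizontal axis) of Birc6, Ppp6r3, Specc1l and Tmcc1 in the mock arrays, red for 0-60 min and blue for 30-60 min; symbols are arrays 1, 2 and 3. Within each gene some probe sets have the red points above or among the blue and others far below, as in Tmcc1 with differences of 1.85 and -2.60.

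The same windows in interferon-treated cells, on other arrays, gave the following counts. Since same-numbered arrays of the treatments deviated together, these arrays are not independent of the mock arrays, and the overlaps and correlations below are descriptions. With IFN alpha 4997 genes were called (52.5%), 4224 higher (44.4%) and 773 lower (8.12%). With IFN gamma 5107 were called (53.6%), 4206 higher (44.2%) and 901 lower (9.46%). Of the 3868 genes higher in mock, 3222 were also called higher with IFN alpha (83.3% of the mock list and 76.3% of the other) and 3100 with IFN gamma (80.1% and 73.7%). Of the 1131 lower ones, 626 (55.3% and 81.0%) and 664 (58.7% and 73.7%) were shared. Calls in the opposite direction numbered 4 and 1 with IFN alpha, and 3 and 2 with IFN gamma. Across the 9521 genes the mock difference correlated with that of IFN alpha at 0.86 and of IFN gamma at 0.84, or 0.89 and 0.88 without array 1. Genes are not independent replicates, and all 3 differences share probe sets and scaling. H1f2 differed by 3.85 with IFN alpha and 2.48 with IFN gamma, Zbtb20 by -2.73 and -3.44, and Vcl by -1.65 and -1.45. The cell cycle list had 34 higher and 1 lower of 38 with each interferon.

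**Figure D5:**
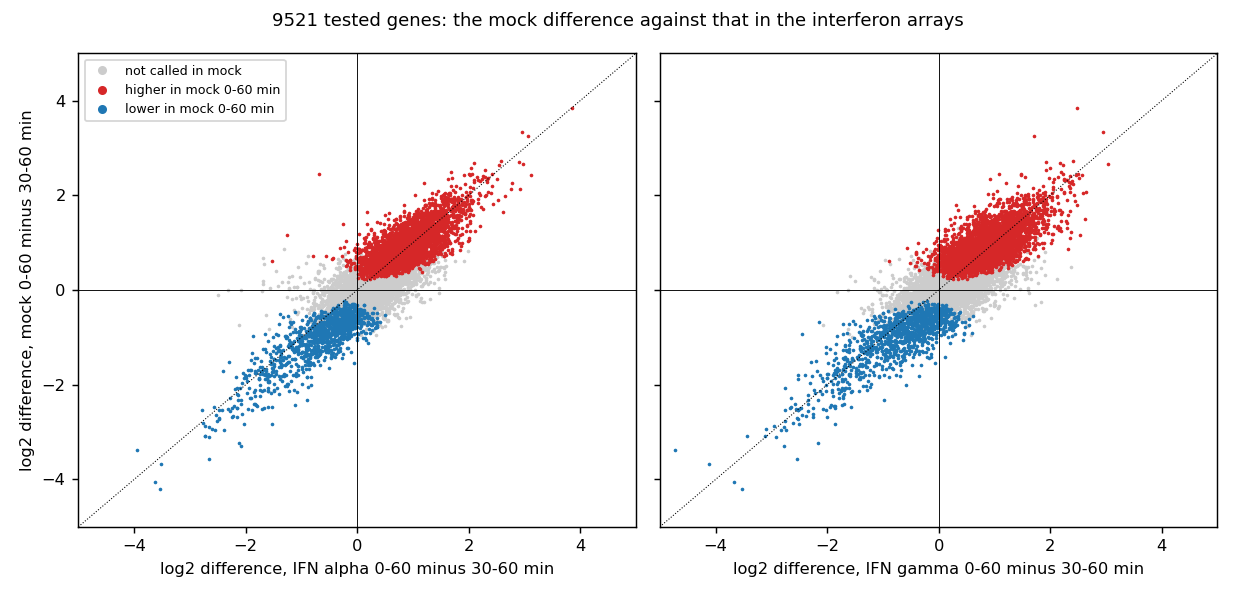
Log2 difference between the windows in mock (vertical axis) against that with IFN alpha (left) and IFN gamma (right) for 9521 genes; red and blue points are genes called higher and lower in mock, grey points are not called, and the dotted line marks equal values. Points follow the line, with correlations of 0.86 and 0.84 across genes.

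In mock cells, which received no interferon, 7 of 48 antiviral genes were higher (14.6%) and 2 lower (4.17%), beside 40.6% and 11.9% of all genes. Their median difference was 0.06, and the typical member was under the filter, at a median level of 3.29 and 3.07. With IFN alpha 3 were higher and 17 lower, and with IFN gamma 2 and 11. Ifit1, which binds foreign RNA caps, read 5.17, 7.84 and 6.47 against 3.73, 4.31 and 4.1 in mock (2.45 ± 0.50), with 0-30 min at 7.31. The window difference itself differed between mock and IFN alpha for 10 genes (0.105%), with 10 higher (0.105%) and 0 lower (0%) in limma's test of the difference of differences, and 546 lower at an unadjusted p under 0.05. It differed between mock and IFN gamma for 18 (0.189%), 12 higher (0.126%) and 6 lower (0.063%). Trim25, a ubiquitin ligase of the RIG-I pathway, was called against both. It stood at 9.75 ± 0.35 and 8.71 ± 0.07 (SD, n = 3) in mock, but at 11.92 ± 0.21 and 12.11 ± 0.14 with IFN alpha. Both tests use the same 6 mock arrays. Because same-numbered arrays deviated together across treatments, the array number within each window was added as a block, after the data were seen. With it 43 genes were called against IFN alpha (26 higher and 17 lower) and 380 against IFN gamma (150 and 230). The counts without the block also rest on few arrays. With only the arrays compared 0 and 1 genes were called (177 and 345 at an unadjusted p under 0.05, in limma). Against IFN alpha the 10 became 17, 16 and 22 without mock 0-60 min array 1, 2 or 3, and 29 without IFN alpha 0-60 min array 2. Against IFN gamma the 18 became 106 and 123 without mock 0-60 min array 2 or 3, and 6 and 2 without mock 30-60 min array 1 or 3. They became 8 and 2 without IFN gamma 0-60 min array 1 or 2, and 10, 6 and 8 without its 30-60 min arrays 1, 2 and 3.

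The shares called higher were 50% in the heat shock, 35.3% in the clock and 33.9% in the zinc finger list, beside 40.6% of all genes. Of 18 heat shock genes 9 were higher and 1 lower, with Dnajb1, a co-chaperone, at 1.05 ± 0.18. The lower one, Hsp90aa1 (-0.45), was not called without array 1 (-0.12). The list median was 0.30, and -0.13 with the tested-gene median. Of 17 clock genes 6 were higher and 0 lower (median 0.38, then -0.06), namely Nr1d1, Csnk1e (1.84), Hlf (1.75), Nr1d2 (1.05), Cry1 (0.46) and Cry2 (0.38). Nr1d2 stood at 1.64 without array 1, which overlapped the 30-60 min arrays, and Cry2 was then not called. Per2 (-0.16) and Arntl (-0.38), which carry the core loop, did not pass. The 242 numbered zinc finger genes had 82 higher and 26 lower, from Zfp428 at 2.10 to Zfp950 at -2.45 (median 0.26, then -0.17). Of 7 histone genes 2 were higher (28.6%, H1f2 and H2aw) and 2 lower (28.6%), beside 40.6% and 11.9% of all genes. The lower ones were H3f3a at -1.13 and H3f3b at -0.98, and H3f3b lost its call without array 1. Actb, the control gene, read 13.75, 13.75 and 13.59 against 13.41, 13.39 and 13.56 and did not pass (0.24 ± 0.12). Its sign turned with the tested-gene median (-0.19).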

How the data were processed

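Newly transcribed RNA was measured on Affymetrix mouse arrays. The deposited log2 values, of 45101 probe sets on 36 arrays, come from GCRMA as run by the authors, a step named per the submitters' processing notes; its version is not given in the sources used here. Values ran from 1.34 to 14.8. Each array was shifted to a common median over the non-control probe sets (64 controls left out). Probe sets with log2 over 4 in at least 3 arrays were kept (21815). Symbols came from the platform annotation (34945 probe sets with 1 symbol, 932 with several, 9160 with none), and the gene IDs of 34741 were found in the RefSeq table (GRCm38.p6), used for names and promoters. The brightest kept probe set on average stood for each gene, leaving 9521. The model, run in limma 3.58.1 under R 4.3.3, had a mean for each of the 12 groups and an intensity trend in eBayes (24 residual and 6.97 prior degrees of freedom). Two-sided adjusted p are Benjamini-Hochberg over 9521 genes, called under 0.05. The fit takes 1 spread per gene over 12 groups, so errors understate the spread of the 0-60 min mock group, whose median SD was 0.39 (0.15 without array 1), beside 0.21 in the 30-60 min group. The scripts were tested on simulated data, where unequal spread between arrays led this fit to call unchanged genes.

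The arrays compared, and the gene lists, were chosen with earlier results of these data known. Lists are described by counts and medians, with no test. Named genes were a fixed panel of 20, the 12 largest called differences in each direction without overlap whose higher group averaged log2 6 or more, the called genes of each list, at most 4, that differed most, and the 5 largest in each direction for mock against either interferon. Further list members are named for their role, after their values were seen. Gapdh, on the panel, was not among the genes tested. Alternatives covered scaling, filter, log scale, probe sets, arrays in the fit, spread and left-out arrays; leaving out array 1 together with the arrays compared only, or with the tested-gene median, was added after seeing the data, as were blocks on the array number within a window. The numbers pair arrays across treatments within a window (18 of 18 correlations of deviations over 0.1), not across windows.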

Additional observations from a re-analysis of the deposited data

Results flagged for a closer look

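The window difference, 0-60 minus 30-60 min, differed between mock and interferon-treated cells by a test of the difference itself for the following named genes. Values are the mock difference minus the interferon difference on the log2 scale, from limma with adjustment over 9521 genes.

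Against IFN alpha, Trim30a (2.32 ± 0.32, adjusted p = 0.00014), Dcp2 (2.22 ± 0.47, adjusted p = 0.041), Parp14 (2.15 ± 0.37), Tdrd7 (1.82 ± 0.31), Zc3hav1 (1.52 ± 0.21) and Trim25 (1.24 ± 0.20) were called, and these 6 stayed called without mock 0-60 min array 1 and with the array number within each window as a block. Trim30a, a tripartite motif protein, stood at 4.16 and 4.17 in the mock windows and at 5.86 and 8.18 with IFN alpha. Zc3hav1, the antiviral zinc finger protein ZAP, stood at 8.29 and 7.57 in mock and at 9.51 and 10.30 with IFN alpha, and another of its probe sets was called the opposite way in mock. Dcp2, an mRNA decapping enzyme, stood at 8.15 after 0-60 min of IFN alpha with an SD of 1.49 between the 3 arrays. Parp14 was under log2 4 in mock.

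Against IFN gamma, Nr1d1 (1.54 ± 0.34, adjusted p = 0.0498), Cped1 (1.48 ± 0.33), Atf3 (1.16 ± 0.25), Trim25 (1.10 ± 0.20), Pank1 (0.99 ± 0.21) and Hk2 (0.86 ± 0.17) were called with the mock difference higher, and Ramp3 (-1.59 ± 0.34) and Crk (-0.74 ± 0.16) with it lower. Without mock 0-60 min array 1 only Hk2 (adjusted p = 0.010) and Trim25 (0.012) of these 8 stayed under 0.05. With the block within each window Nr1d1, Cped1, Atf3, Trim25, Pank1, Ramp3 and Crk did, with or without that array. The block fit was not read out for Hk2. Hk2 stood at 10.81 and 9.95 in the mock windows and at 12.17 in both with IFN gamma. Atf3 stood at 8.14 and 6.75 in mock and at 8.02 and 7.80 with IFN gamma.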

How the results depend on the processing

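The count of called genes stayed within 1.5 times its value under most alternatives. Reading all kept probe sets with 1 symbol gave 8943 calls in mock, 8832 with IFN alpha and 9238 with IFN gamma, over more features, with 5856 higher and 3087 lower in mock. A 2-fold minimum left 1934, 1922 and 1915. With only the arrays compared mock had 2111 (1643 higher and 468 lower), and the differences of mock from IFN alpha and IFN gamma had 0 and 1. Quantile normalization gave 17 and 43 for these differences, array weights 32 and 32, and a filter at log2 6 gave 3 against IFN gamma; the cause was not tested. Leaving out 1 array at a time gave 4396 to 5105 calls in mock, 4218 to 4706 with IFN alpha and 4356 to 4759 with IFN gamma, 8 to 29 for mock against IFN alpha and 2 to 123 against IFN gamma. Between the mock windows the array numbers did not pair the samples (correlations of deviations of -0.35, -0.36 and -0.05 between same-numbered arrays), and with a replicate block 5148 genes were called in mock, 3974 higher and 1174 lower. Of 150 named genes 149 kept their call under the block. Across treatments within a window the numbers did pair the samples. A replicate block within each window gave 43 and 380 calls for the differences of mock from IFN alpha and IFN gamma, 108 and 651 with mock 0-60 min array 1 left out as well, and 46 and 357 as a random block. The random block left 5023 calls in mock, and Bnip3 lost its call (adjusted p = 0.060, limma). These fits were added after seeing the data. Without array 1 of the 0-60 min group 135 kept it, 11 lost it and 4 turned, and with the tested-gene median 123 kept it.

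The list counts below are genes called higher, then lower. With the tested-gene median 18% of all genes were higher and 26.9% lower. Sterol synthesis then fell to 11 and 2, ATF4 to 10 and 1, proteasome to 10 and 2, and cytosolic ribosomal proteins to 5 and 7. Mitochondrial ribosomal proteins fell to 28 and 4 and oxidative phosphorylation to 17 and 8. TGF-beta targets went from 2 and 2 to 1 and 10. Glycolysis had 11 and 2, translation 13 and 7, splicing factors 1 and 20, and matrix genes 0 and 16. Without array 1 the immediate-early factors had 8 and 1 and the matrix genes 0 and 10.

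Signs turned for some small differences. The tested-gene median moves every gene by -0.43, so smaller positive differences turn: Jun (-0.011), Junb (-0.29), Hes1 (-0.36), Per1 (-0.13), Actb (-0.19), Tdrd7 (-0.30), Ramp3 (-0.11) and Crk (-0.35). With array 1 left out as well these were Junb (-0.45), Hes1 (-0.64), Per1 (-0.57), Actb (-0.21), Mrtfa (-0.083), Smurf1 (-0.19), Nfkbib (-0.12), Tdrd7 (-0.63), Ramp3 (-0.11) and Crk (-0.24). Leaving out 1 array gave -0.28 to 0.36 for Junb, -0.21 to 0.29 for Hes1, -0.14 to 0.62 for Per1, -0.20 to 0.31 for Tdrd7, -0.24 to 0.027 for Ier2 and -0.18 to 0.14 for Trim30a, and with only the arrays compared and without array 1 Junb stood at -0.016, Hes1 at -0.21, Per1 at -0.14 and Tdrd7 at -0.20. Array weights gave -0.29 for Junb, -0.30 for Per1 and -0.11 for Tdrd7. Trim30a stood at 0.047 as deposited, 0.19 with quantile normalization and 0.0067 after adding 16. Myo1d (0.88 with quantile normalization) and Parp14 (-0.43 with the filter on the arrays compared) were there read from another probe set. The cause was not tested for the others. The number of arrays and the signal over background limit precision, most for genes under log2 4.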
